A study of Mus musculus with 2 samples.

Results

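The nuclear factor I (NFI) family is a set of 4 mouse transcription factor genes, Nfia, Nfib, Nfic and Nfix, and it was described here in RNA of sorted type 5 bipolar cells of the retina. The genes were taken by symbol from a table of 32813 gene symbols, and all 4 were found. NFI proteins bind DNA as homodimers or heterodimers of the family through a conserved domain at their N-terminal end, and they activate some genes and repress others. In the developing retina, Nfia, Nfib and Nfix are known as genes of late progenitors that take part in the making of bipolar cells and Muller glia, and in the adult retina the family is known from Muller glia and, for Nfia, from AII amacrine cells. Nfic is best known from tooth root formation.

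The series has 1 group of 2 libraries, replicate 1 and replicate 2, which the submitters call biological. For both, retinas of Htr3a-GFP mice were dissociated, the fluorescent cells were sorted, and their total RNA was sequenced. In this line the Htr3a promoter drives green fluorescent protein, so the sort takes any retinal cell in which that promoter is active. Strain, age and number of animals per library are not stated in the labels. Values are TPM, shares of the transcripts in a library scaled by gene length, so levels may be compared between genes. This unit holds no read depth, and the depth behind each value is therefore unknown. A value listed at 0 may be a failed estimate and is given as listed. With 1 group there is no treated or control sample, and every value is a level in the sorted cells. In sorted bulk RNA, fewer cells that carry a transcript and less of it per cell cannot be told apart.

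The members are paralogs, so it matters for the values whether a read can be placed on the right gene. The coding stretch of 90 bases in which the 4 genes are most alike is shown here for each, read from the GENCODE M21 transcripts on GRCm38 (the assembly also called mm10), 5′ to 3′ on the coding strand. Capitals mark the 22 positions at which the genes are not all the same. The other 68 positions are the same in all 4.
Nfia: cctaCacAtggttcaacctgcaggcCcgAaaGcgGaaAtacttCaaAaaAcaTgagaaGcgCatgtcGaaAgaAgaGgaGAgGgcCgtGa
Nfib: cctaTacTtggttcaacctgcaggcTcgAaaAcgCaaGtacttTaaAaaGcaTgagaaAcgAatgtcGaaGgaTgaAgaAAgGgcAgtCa
Nfic: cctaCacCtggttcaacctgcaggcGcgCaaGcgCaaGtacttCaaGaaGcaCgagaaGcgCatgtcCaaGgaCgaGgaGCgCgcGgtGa
Nfix: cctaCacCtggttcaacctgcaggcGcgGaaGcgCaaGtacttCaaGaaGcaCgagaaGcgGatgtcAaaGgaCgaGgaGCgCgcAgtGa
In each gene the stretch lies in exon 2 of the chosen transcript and near the start of the reading frame, from coding position 80 to 169 in Nfia, 83 to 172 in Nfib and Nfic, and 56 to 145 in Nfix. Its coordinates are chr4:97783134-97783223 on the plus strand for Nfia, chr4:82498628-82498717 on the minus strand for Nfib, chr10:81420657-81420746 on the minus strand for Nfic and chr8:84772174-84772263 on the minus strand for Nfix. Even here the differing letters are spread through the stretch.

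Over whole reading frames the members shared 63.9% of aligned coding bases (Nfib and Nfix) to 70.2% (Nfia and Nfix). The longest run of identical bases between any coding transcripts of 2 members was 32 bases, between Nfic and Nfix, and for the other pairs it was 18 to 21 bases. No run of 50 bases was common to 2 members. Against the transcripts of all other genes, in either orientation, Nfia shared 0 of its 11026 distinct runs of 50 bases and Nfib 0 of 15091. Nfic shared 24 of 6711, all with the antisense gene Gm16104. Nfix shared 100 of 7477, or 1.34%, and 433 other genes held at least 1 of these runs. Of the 100 runs, 92 were shared with G430095P16Rik, a gene on the opposite strand inside Nfix. The labels do not state the read length, so how many reads could be split among genes was not measured.

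In GENCODE M21 all 4 genes are annotated as protein-coding and are long. Nfia lies at chr4:97772734-98118874 on the plus strand, a span of 346141 bases with 8 annotated transcripts. Nfib lies on the same chromosome at chr4:82290173-82705750 on the minus strand, spanning 415578 bases with 12 transcripts. Nfic lies at chr10:81396186-81455635 and Nfix at chr8:84699876-84800344, both on the minus strand, spanning 59450 and 100469 bases. The longest coding transcripts measure 9526 bases for Nfia, 9116 for Nfib, 6237 for Nfic and 5476 for Nfix. TPM values are per gene and do not say which of these transcripts were read.

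Nfia was the most abundant member, Nfix the second, and Nfic and Nfib stood far lower, in the same order in both libraries. Nfia, known in brain development for the switch from neurons to glia, stood at 540.84 TPM in replicate 1 and 580.9 in replicate 2, or 561 ± 28.3 TPM (SD, n = 2). It ranked 171 among all symbols by mean TPM, and 99.1% of the 19968 genes above 0 in either library had a lower mean. The libraries were close, with replicate 2 higher by a factor of 1.07.

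Nfix, which in brain and fetal muscle is known for the timing of differentiation, stood at 195.78 TPM in replicate 1 and 160.12 in replicate 2, or 178 ± 25.2 TPM (SD, n = 2), and ranked 782. Its lower library was above the higher library of Nfic by a wide margin. Nfic stood at 31.7 and 31.36 TPM, or 31.5 ± 0.24 TPM (SD, n = 2), and ranked 5217. The libraries were nearly equal for it. Nfib, known from lung maturation and from the formation of the corpus callosum, stood at 23.52 TPM in replicate 1 and 19.41 in replicate 2, or 21.5 ± 2.91 TPM (SD, n = 2). It ranked 6811, the lowest place in the family, and still above 65.9% of genes above 0 in either library. Neither library listed a member at 0.

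**Figure D1:**
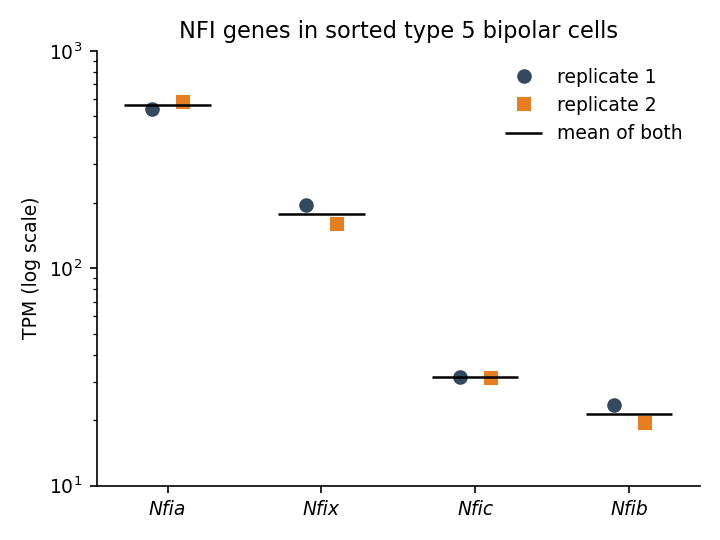
TPM of the 4 NFI genes (log scale) in each library of sorted type 5 bipolar cells, with circles for replicate 1, squares for replicate 2 and a line for the mean of both. Nfia lies between 540.84 and 580.9, Nfix between 160.12 and 195.78, Nfic near 31.5 and Nfib between 19.41 and 23.52.

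In TPM as listed, the summed level of the family was nearly the same in both libraries, 791.84 in replicate 1 and 791.79 in replicate 2. This near equality depends on the scaling. With TPM rescaled without mitochondrial-genome genes, log2(TPM + 1) in replicates 1 and 2 was 9.36 and 9.59 for Nfia and 7.89 and 7.74 for Nfix. It was 5.30 and 5.41 for Nfic and 4.88 and 4.74 for Nfib. The division of the listed sum among members moved slightly. Nfia made up 68.3% of the sum in replicate 1 and 73.4% in replicate 2, and Nfix 24.7% and 20.2%. Nfic made up 4.0% and 3.96%, and Nfib 2.97% and 2.45%. Thus Nfia and Nfix together carried most of the family's transcripts in both libraries.

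The gaps between members were compared with the spread of the libraries. Nfia exceeded Nfix by 1.46 in replicate 1 and 1.85 in replicate 2 on the scale log2(TPM + 1), which is 2.76-fold and 3.63-fold in TPM. Nfix exceeded Nfic by 2.59 and 2.32, or 6.18-fold and 5.11-fold. Both gaps were larger than the SD of a single library at these levels, which was 0.635 log2 units over 1584 genes with a mean of 100 to 1000 TPM and 0.855 over 8216 genes of 10 to 100 TPM. Nfic exceeded Nfib by 0.42 and 0.66, or 1.35-fold and 1.62-fold. This last gap was smaller than the SD of genes of 10 to 100 TPM, so Nfic and Nfib do not differ beyond the spread usual at their level, although their own values did not overlap. Between the ends of the order, Nfia stood 23.0-fold above Nfib in replicate 1 and 29.9-fold in replicate 2. No test was made between members, because over 2 libraries a sign test cannot go below a two-sided exact p of 0.5.

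Expression above a line was tested with limma over all genes, one-sided, with Benjamini-Hochberg adjustment and a threshold of 0.05. All 4 members passed above 1 TPM, a line that 55.5% of the 19968 genes passed, and 3 of 4 passed above 10 TPM, a line that 32.4% passed. Nfib was the member not called above 10 TPM (limma, adjusted p = 0.0581), although both of its libraries were over 10 TPM. Over the alternative limma settings its adjusted p ranged from 0.00573 to 0.0841 and passed in 3 of 7, so its call at this line depends on the setting. The fit gave each gene the variance of genes of its abundance, so a gene's own spread did not enter. Without a test, both libraries held Nfia and Nfix at 100 TPM or more, which was true of 6.57% of the genes. On the log2(TPM + 1) scale the members had a median of 6.25, and all genes above 0 in either library a median of 3.22. With 4 members these shares only describe the family.

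**Figure D2:**
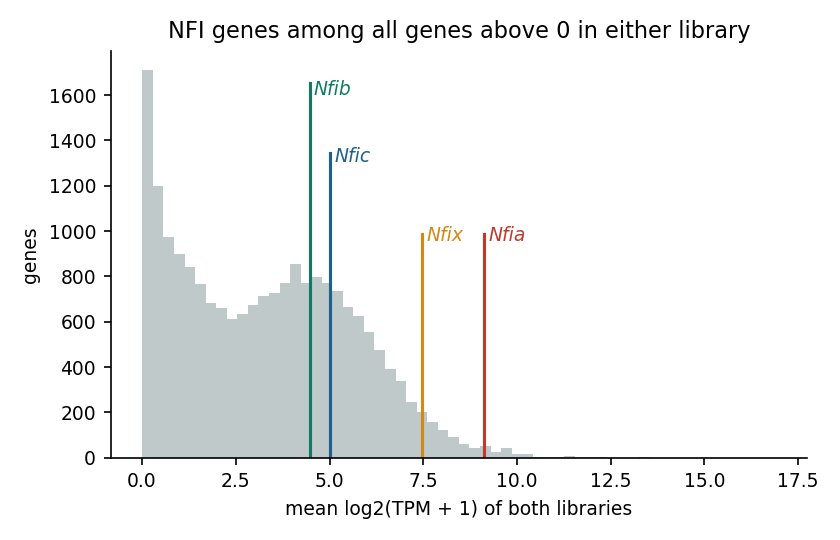
Number of genes (y axis) by mean log2(TPM + 1) of both libraries (x axis) for the 19968 genes above 0 in either library, with a vertical line at each NFI gene. Nfib at 4.48 and Nfic at 5.02 lie within the bulk of expressed genes, Nfix at 7.48 and Nfia at 9.13 in the upper tail.

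In TPM as listed, each member differed less between the libraries than the median gene of its level, and Nfix was the closest to that median. The log2 difference, replicate 2 minus replicate 1, was 0.10 for Nfia and -0.29 for Nfix, where genes of 100 to 1000 TPM had a median absolute difference of 0.37. It was -0.02 for Nfic and -0.26 for Nfib, where genes of 10 to 100 TPM had a median absolute difference of 0.62. Of genes in the same range, 15.2% had a smaller absolute difference than Nfia, 41.1% than Nfix, 1.23% than Nfic and 22.2% than Nfib. Over all genes above 0 in either library the median of this difference was -0.20, so Nfix and Nfib lay near that shift, and Nfia and Nfic were a little above it.

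**Figure D3:**
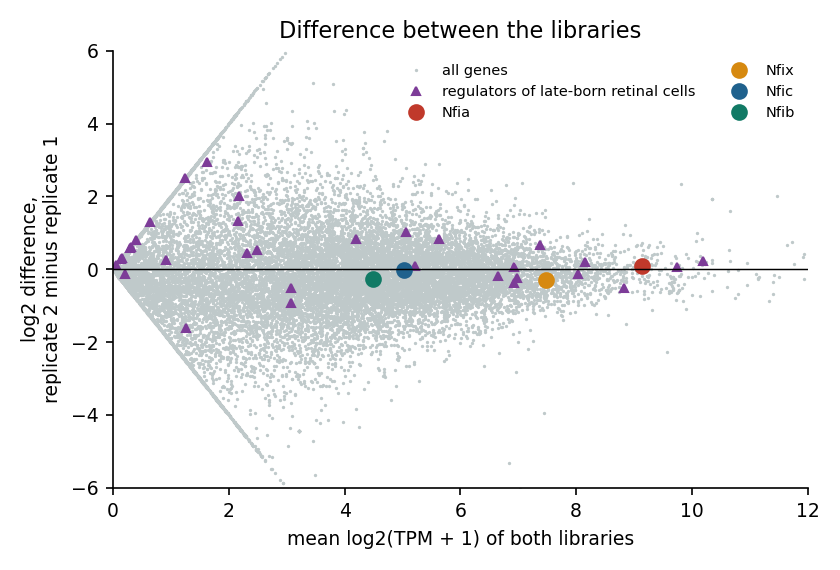
Log2 difference between the libraries (replicate 2 minus replicate 1, y axis) against mean log2(TPM + 1) (x axis), with a grey point per gene, triangles for regulators of late-born retinal cells and large circles for the NFI genes. The NFI genes lie between -0.29 and 0.10, near the line at 0, and 31 genes fall outside the axes.

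Set among 38 regulators of late-born retinal cells, from progenitor factors to bipolar homeobox genes, Nfia was near the top. Only Neurod4, a proneural bHLH gene of bipolar cells, at 1086.4 and 1269.6 TPM, and Otx2, the homeobox gene of photoreceptors and bipolar cells, at 842.63 and 874.54 TPM, were higher than Nfia in both libraries. For Nfix, 5 of the 38 were higher in both libraries and 32 lower in both. For Nfic 12 were higher in both and 25 lower in both, and for Nfib 12 and 24. Of the 38 regulators, 16 were above 1 TPM and 13 above 10 TPM (limma, adjusted over all genes), 9 reached 100 TPM in both libraries, and 6 were listed at 0 in both, among them Olig2, Prdm13, Irx5, Foxn4 and Ptf1a. Their median was 2.17 on the log2(TPM + 1) scale. Of the 19968 genes above 0 in either library, 55.5% were above 1 TPM, 32.4% above 10 TPM and 6.57% reached 100 TPM in both. The median of those genes was 3.22. They leave out genes listed at 0 in both libraries, which the 38 include. Over all 32813 symbols, with such genes included, the median was 0.75.

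The regulators nearest to each member were found by Euclidean distance on the log2(TPM + 1) scale over the 2 libraries, a measure of like level only. Nearest to Nfia were Isl1, the ON bipolar homeobox gene, at a distance of 0.62 with 543.36 and 378.34 TPM, and Otx2 at 0.87. Near to Nfix was Sox6, at 0.70 with 136.46 and 114.99 TPM. Sox6 is also a marker of subtype 5A of the type 5 cells. Nearest to Nfic were the eye-field homeobox gene Six6 at 0.28, with 34.89 and 37.41 TPM, and Pax6 at 0.74, with 22.34 and 46.47 TPM. Nearest to Nfib were Six3 at 0.88, with 12.72 and 23.42 TPM, and Six6 at 1.06. Htr3a, the gene behind the sort, had 90.93 and 88.83 TPM, below Nfia and Nfix and above Nfic and Nfib in both libraries.

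**Figure D4:**
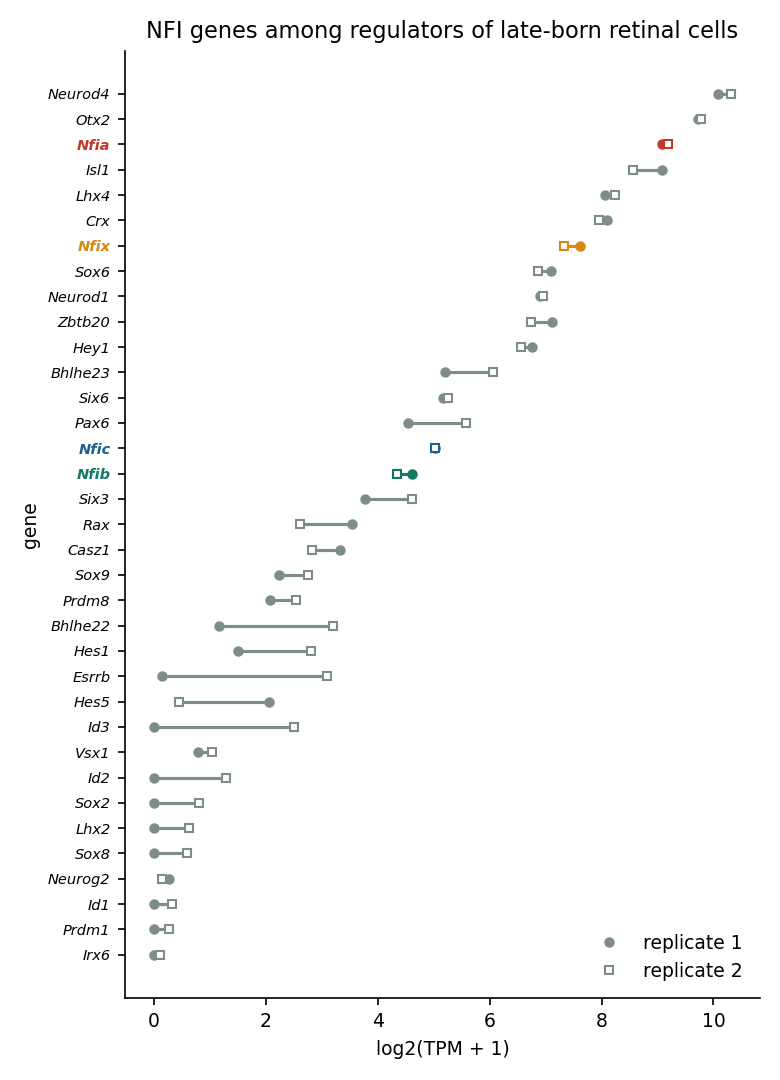
Log2(TPM + 1) of the NFI genes (coloured) and of regulators of late-born retinal cells above 0 in either library (grey), ordered by mean, with a filled circle for replicate 1 and an open square for replicate 2. Nfia stands next after Neurod4 and Otx2, and the NFI genes have short lines between their libraries.

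Of 8 regulators known to work with NFI proteins in other tissues, 2 were called above 1 TPM and 1 above 10 TPM. Among the 19968 genes above 0 in either library, the shares called were 55.5% and 32.4%. Those genes leave out genes listed at 0 in both libraries, which the 8 include. Smarca4, the ATPase of a chromatin remodelling complex, stood at 59.0 and 71.97 TPM, and the corepressor gene Ski at 8.26 and 12.32 TPM. Sox9, a partner of Nfia in glial development, had 3.69 and 5.73 TPM. Both values were over 1 TPM, but limma did not call Sox9 above that line. Etv1, known beside NFI in cerebellar granule neurons, was listed at 0 and at 0.47 TPM. The other 4, Sox10, Olig2 and Foxa1 among them, were listed at 0 in both libraries.

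Of 13 genes reported as NFI targets in brain or other tissues, 5 were called above 1 TPM and 3 above 10 TPM. The median of the 13 was 2.29 on the log2(TPM + 1) scale. Among the 19968 genes above 0 in either library, 55.5% and 32.4% were called, and their median was 3.22. Over all 32813 symbols, with genes at 0 in both libraries included as in the 13, the median was 0.75. Ezh2, the methyltransferase of Polycomb complex PRC2, stood at 200.68 and 148.25 TPM and was the highest. Cdh2, which encodes N-cadherin, had 41.87 and 50.72 TPM, Bbx, an HMG-box gene, 41.42 and 36.11 TPM, and Mmd2, a gene of early astrocyte development, 14.47 and 26.31 TPM. Apcdd1, an inhibitor of Wnt signalling and the fifth called, had 18.57 and 14.2 TPM and is named after its values were seen. The lowest were Gabra6, a GABA receptor subunit gene of cerebellar granule neurons, listed at 0 in both libraries, and Fabp7, a fatty acid binding protein gene of radial glia, listed at 0 and at 1.1 TPM. Gfap, the astrocyte filament gene, was listed at 0 and at 3.4 TPM, with replicate 1 given first throughout. Whether any of these genes responds to NFI proteins in bipolar cells was not tested.

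NFI dimers bind a palindrome, TTGGC and GCCAA with 5 bases of any kind between them, which reads the same on both strands. It was searched in 32851 RefSeq promoter windows (GRCm38.p6), each from 250 bases before to 50 bases after a gene start, and 12 windows of 12 genes held it, or 0.0365% of the windows. Of the 12 genes, 6 were in the table, and the 4 of highest mean TPM are shown because they are the entries with the full palindrome for which RNA was detected. Capitals mark the palindrome.
Galt: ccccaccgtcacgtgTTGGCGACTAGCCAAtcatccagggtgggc
Gstm7: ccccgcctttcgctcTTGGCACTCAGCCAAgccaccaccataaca
Oasl1: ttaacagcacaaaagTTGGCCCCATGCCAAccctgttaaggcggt
Fam160a1: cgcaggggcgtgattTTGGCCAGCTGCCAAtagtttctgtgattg
These stretches lie at chr4:41755466-41755510 on the plus strand for Galt, chr3:107931845-107931889 on the minus strand for Gstm7, chr5:114923116-114923160 on the plus strand for Oasl1 and chr3:85746286-85746330 on the minus strand for Fam160a1.

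Galt, a galactose metabolism enzyme gene, stood at 44.71 and 51.46 TPM and was the 1 gene of the 6 called by limma above 1 TPM and above 10 TPM. Gstm7, a glutathione transferase gene, had 6.19 and 0.89 TPM, Oasl1 3.19 and 1.67, and Fam160a1 0.41 and 3.21. The other two, Hrh1 and 1810065E05Rik, were listed at 0 in both libraries and are named after their values were seen. Of the 17328 genes of the table with a promoter window, 43.6% were above 1 TPM and 26.7% above 10 TPM. The palindrome was in none of the 6 windows of the members themselves, which were 1 for Nfia, 1 for Nfic and 4 for Nfix. These windows follow RefSeq starts, and none covers the 5′ end of the GENCODE M21 span given above. The Nfia window, chr4:97581693-97581992, lies outside that span, and the Nfic and Nfix windows lie inside theirs. Promoters at those 5′ ends were therefore not searched. No window of Nfib was searched. A single arm, TTGGC or GCCAA, was in 3 of the 4 Nfix windows and in neither the Nfia nor the Nfic window, and 46.7% of all windows held an arm. A match is a match of letters and not a measured binding site.

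Genes that overlap the members were low, apart from a gene at the start of Nfia. E130114P18Rik, on the opposite strand at chr4:97568133-97778078, stood at 154.23 and 111.34 TPM. In GENCODE M21 its span overlaps that of Nfia by 5345 bases, but the exons of both share 4 bases, or 0.0367% of the 10891 exonic bases of Nfia. The RefSeq promoter window of Nfia, chr4:97581693-97581992, lies inside E130114P18Rik, so from that start the overlap of spans would be larger. The labels do not state whether reads were counted by strand. Inside Nfix, the opposite-strand genes Lyl1 and G430095P16Rik had 1.74 and 1.63 TPM in replicate 1, and in replicate 2 were listed at 0 and at 0.45 TPM. Inside Nfib, the antisense gene Gm11266 had 0.35 and 0.36 TPM, Gm11267 and Gm11269 were listed at 0 in both libraries, and n-R5s188 had 5.6 TPM in the first library and a listed 0 in the second. Gm16104, inside Nfic, was listed at 0 in both.

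Beside the members, the nearest genes had levels of their own. Trmt1, whose end lies 68 bases from that of Nfix, stood at 52.18 and 62.93 TPM, and Dand5, on the other side, at 20.06 and 69.12 TPM. Celf5, 3592 bases from Nfic, had 12.21 and 22.56 TPM. Zdhhc21, 92988 bases from Nfib, had 109.66 and 75.09 TPM, above Nfib in both libraries, and the noncoding gene Gm5860 on the other side had 11.58 and 9.83 TPM. Gm12676, a noncoding transcript 15345 bases from the GENCODE M21 start of Nfia, had 25.34 and 24.94 TPM. From the RefSeq start it would lie inside Nfia.

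The label of the cells was checked against markers. For these and the following lists, genes above a line are those called by limma. Among the 19968 genes above 0 in either library, 55.5% were called above 1 TPM and 32.4% above 10 TPM. Of 7 type 5 genes, 5 were above 1 TPM (Kcng4, Sox6, Cdh9, Lrrtm1 and Htr3a), with Chrm2 at 0.08 and 1.15 TPM and Slitrk5 at 0.55 and 2.15, and of 13 bipolar genes 12 were. Prkca, the usual stain of rod bipolar cells, was the member not called, at 4.1 and 7.3 TPM. The bipolar list summed to 10601 TPM in replicate 1 and 10088 in replicate 2, and the type 5 list to 680 and 759 TPM. RNA of the mitochondrial genome took 17.3% and 24.6% of the TPM.

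Muller glia also express NFI genes, so their markers stand beside the family's values. Of 14 Muller glia genes, 6 were above 1 TPM and 2, Glul and Clu, above 10 TPM. Their sum in TPM as listed was 199 in replicate 1 and 422 in replicate 2. The NFI sum on the same scale was 791.84 and 791.79 TPM, with Nfia higher and Nfix lower in replicate 2. Glul, the glutamine synthetase gene, had 75.77 and 123.92 TPM and Clu 85.74 and 79.46. Vim had 0.2 TPM in replicate 1 and 118.83 in replicate 2, which is most of the difference between the sums. It is among the 6 called above 1 TPM although replicate 1 was under that line, since the fit did not use a gene's own spread. The lowest, Kcnj10 and Abca8a, had 1.43 and 0.31 TPM in replicate 1, and 0.56 and 1.11 in replicate 2. The part of Muller glia RNA in the NFI values was not tested.

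Of 14 amacrine genes, 6 were above 1 TPM and 4 above 10 TPM. Their sum of 976 and 784 TPM came mostly from Prox1 and from Gjd2, the connexin 36 gene. Prox1 had 702.42 and 468.34 TPM, and Gjd2 162.18 and 136.2 TPM. Both are on the amacrine list, and cone bipolar cells also express them. Which cells this RNA came from was not tested. Dab1, a marker of AII amacrine cells, had 44.07 and 39.09 TPM. Gad1 and Gad2, the GABA synthesis genes of amacrine cells, had 0.06 and 0.11 TPM in replicate 1 and 10.43 and 9.94 in replicate 2, and Tfap2b had 0.33 and 20.44 TPM, all 3 named after their values were seen. Both libraries list Chat and Calb2 at 0. The part of amacrine RNA in the NFI values was not tested.

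Of 10 rod genes, 8 were above 1 TPM, with sums of 1688 and 1750 TPM, led by Gngt1 at 965.04 and 639.12 TPM. Of 9 cone genes 3 were (Gnat2, Gngt2 and Thrb), with sums of 205 and 54.2 TPM. The horizontal list had 1 of 6, Sept4 at 194.47 and 212.97 TPM, the ganglion cell list 1 of 8, Thy1 at 28.33 and 63.89 TPM, and the astrocyte list 1 of 5, the glutamate transporter gene Slc1a2 at 953.91 and 635.13 TPM, which cone bipolar cells also express. Lhx1 and Onecut1 of horizontal cells and Pou4f2, Nefm and Sncg of ganglion cells were under 1 TPM or listed at 0 in both libraries. The endothelial and microglia list had 0 of 7 above 1 TPM by limma and 0 at an unadjusted p under 0.05, with sums of 5.01 and 16.3 TPM. The part of RNA of rods, cones, astrocytes and the other cells listed here in the NFI values was not tested.

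**Figure D5:**
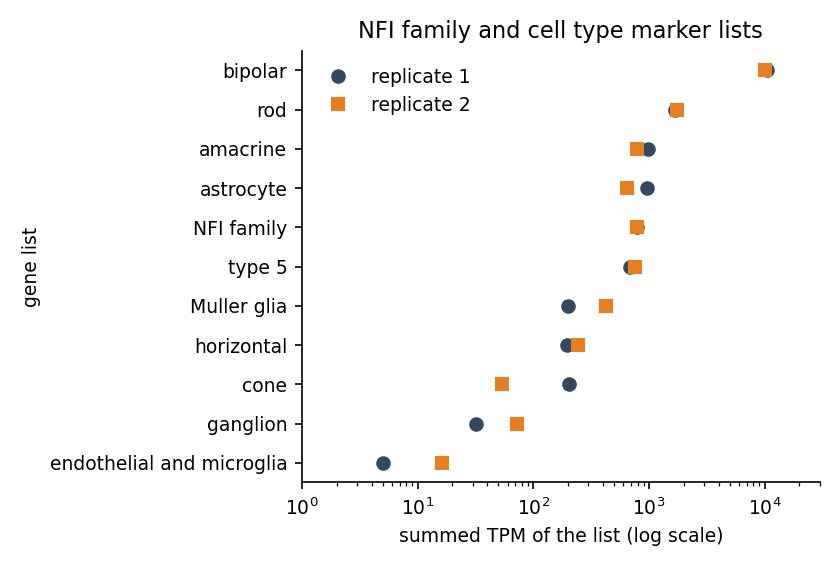
Summed TPM (x axis, log scale) of the NFI family and of the marker lists of retinal cell types (y axis), with circles for replicate 1 and squares for replicate 2. In TPM as listed, the NFI sum is 792 in both libraries, and this near equality depends on the scaling. In replicates 1 and 2 the Muller glia sum is 199 and 422, a difference mostly of Vim at 0.2 and 118.83 TPM. The cone sum is 205 and 54.2.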

How the data were processed

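Per the labels' protocols, cells were sorted into RNAlater and RNA was amplified into libraries with a NuGEN kit (Ovation V2). The authors deposited TPM, a column for each library. TopHat2 2.0.10, RSEM 1.2.28 and mm10 appear in the submitters' processing notes, with no role. The annotation, filters and use of strand are not stated there. Each column was matched to its library by replicate number, since the header of the first misspells Htr3a.

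Values were put on the scale log2(TPM + 1). Tests covered the genes above 0 in either library, and levels were tested against lines of 1 and 10 TPM with limma 3.58.1 in R 4.3.3 (intercept only, variance trend, one-sided). In a simulation of 19968 genes, the test above 1 TPM called 11 of the 50 genes simulated at 4 TPM, 47 of those at 16 TPM, all 50 of those at 64 TPM and 0 of those at 0.25 TPM. A gene not called is thus not shown to lie under the line. p-values of the main fit rest only on the spread between these 2 libraries, taken over genes of like abundance and not gene by gene. Reading frames were aligned with mafft 7.526 (principal transcripts, longest reading frame), and Python 3.11.15, pandas 2.3.3 and matplotlib 3.10.9 were used for the rest.

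The members and lists were chosen with earlier results of these data known. Named are the members, up to 4 highest and 2 lowest genes of a list, the 2 nearest regulators of each member, Htr3a, overlapping and adjacent genes, and the 4 highest genes with the palindrome. Some genes that this rule takes are not reported by name here. Alternatives changed the pseudocount, the filter, the variance model, the scaling and the libraries used.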

Additional observations from a re-analysis of the deposited data

How the results depend on the processing

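All 4 members were above 1 TPM under each of the 7 limma alternatives and at or over 1 TPM without either library. At 10 TPM the count was 3 or 4: Nfib passed with a pseudocount of 0.1 (limma, adjusted p = 0.0363), with a filter at a mean of 1 TPM (0.0405) and with TPM rescaled without mitochondrial-genome genes (0.00573), and without either library all 4 were at or over the line. The number of genes called ranged over the alternatives from 9052 to 12281 at 1 TPM and from 4431 to 7244 at 10 TPM. Rescaling without mitochondrial-genome genes raised the median of all genes by 0.30 log2 units, and the mean log2(TPM + 1) then was 9.47 for Nfia, 7.82 for Nfix, 5.36 for Nfic and 4.81 for Nfib, with a median of 6.59 for the members, close to that common shift. With a pseudocount of 0.1, Nfic moved to 4.98, by more than its very small SD. The order of the members held in each of the 15 alternative values of the differences between neighbours, but none of these could have changed it. Another pseudocount, rescaling and equalised library medians keep the order of genes within a library. The remaining values are those of the single libraries, given above. Without replicate 1 or replicate 2, the difference of Nfia and Nfix was 1.85 or 1.46, and that of Nfic and Nfib 0.66 or 0.42. No paired analysis was possible because the series has no second group to pair with the first. Differences between members were taken within each library. With 2 libraries and unknown depth, small differences between members could not be resolved.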
